A study of Mus musculus with 17 samples.

Results

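The genes described are 45 genes of the cell division cycle, 24 that act in DNA replication and 21 that act in mitosis, taken by gene symbol from the 24015 genes listed in each of 17 RNA-seq count files of CD-1 mouse cells. The list was chosen by function and all 45 symbols were found. The study profiled 3 cell types. MEF, mouse embryonic fibroblasts, were grown for 3 passages in MEF medium (libraries 1, 2 and 3). XEN cells, extraembryonic endoderm stem cell lines (libraries 1, 2 and 7), and iXEN cells, XEN-like lines induced with OSKM, the reprogramming factor set named in the series title (libraries 1, 2, 6 and 9), were each sequenced in 2 media. Both cell types had 10 passages in ESC medium and then 5 more, either in ESC medium or in XEN medium. The same numbers stand in both media, and the labels do not say that a number marks the same line. The MEF therefore differ from every other group in cell type, in medium and in passages, and these cannot be told apart; the 4 comparisons with MEF also share the same 3 MEF libraries. Beyond naming biological replicates, the labels do not say how far the libraries of a group were cultured apart, so p-values measure the spread between these libraries.

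A cell copies its genome once per cycle. The origin recognition complex marks the sites where copying starts, Cdc6 and Cdt1 load a ring of MCM proteins there, geminin blocks reloading, and Cdc45 and the GINS complex turn the ring into a moving helicase. In mitosis, cyclin B with Cdk1 drives entry, Aurora and Polo kinases build the spindle, and the checkpoint kinases hold division back until every kinetochore is attached. Transcripts of the replication genes are known to be driven mainly by E2F factors late in the gap before S phase, and those of the mitosis genes by B-Myb, FoxM1 and the MuvB complex through promoter elements called CHR. In bulk RNA a lower share of dividing cells and less RNA of these genes per cell cannot be told apart.

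Promoters are shown first, because both gene classes carry different short sequence words near their starts. The replication members printed were called higher in all 4 comparisons with MEF below and hold an E2F word in their window. The mitosis members printed were called in 3 of the 4 and hold a CHR word. Members with as many calls but without the word are not printed. Promoter windows from RefSeq on the mouse build GRCm38.p6 were found for 36 of the 45 members, 19 of the replication and 17 of the mitosis genes. Mcm4, Gmnn, Ccne2, Gins1, Gins2, Ccna2, Aurkb, Kif20a and Tpx2 were not among them. The count files were made on build mm9, so these positions belong to the RefSeq table and not to the count files. Each sequence runs 5′ to 3′ on the gene's own strand, from 150 bases before to 50 bases after the annotated start. Capitals mark any E2F word (TTTGGCGC, TTTCCCGC, TTTCGCGC or TTTGCCGC) and any CHR word (TTTGAA or TTCGAA), on either strand. The Mcm3 and Mcm7 genes encode helicase subunits, and the Cdc6 and Cdt1 genes encode the loading factors. Their windows lie at chr1:20820263-20820462 on the minus strand, chr5:138171834-138172033 on the minus strand, chr11:98908001-98908200 on the plus strand and chr8:122567865-122568064 on the plus strand.
Mcm3: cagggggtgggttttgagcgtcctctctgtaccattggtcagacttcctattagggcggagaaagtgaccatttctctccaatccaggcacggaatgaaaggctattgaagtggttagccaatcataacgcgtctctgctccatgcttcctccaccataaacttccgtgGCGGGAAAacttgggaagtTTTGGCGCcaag
Mcm7: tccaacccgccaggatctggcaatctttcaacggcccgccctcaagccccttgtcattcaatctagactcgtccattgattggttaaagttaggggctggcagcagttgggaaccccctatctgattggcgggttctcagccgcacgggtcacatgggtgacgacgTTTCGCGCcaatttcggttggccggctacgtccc
Cdc6: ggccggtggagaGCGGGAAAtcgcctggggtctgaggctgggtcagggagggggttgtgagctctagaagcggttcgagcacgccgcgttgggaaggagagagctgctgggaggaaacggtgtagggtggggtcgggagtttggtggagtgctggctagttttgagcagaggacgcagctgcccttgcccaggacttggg
Cdt1: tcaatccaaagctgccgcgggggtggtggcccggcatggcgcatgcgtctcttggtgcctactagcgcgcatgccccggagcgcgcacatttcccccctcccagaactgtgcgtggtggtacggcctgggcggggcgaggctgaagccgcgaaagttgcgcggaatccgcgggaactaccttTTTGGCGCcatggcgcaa
The next 4 windows belong to mitosis genes, the kinase Cdk1, the spindle kinase Aurka, the centromeric histone Cenpa and the checkpoint kinase Ttk. They lie at chr10:69352863-69353062 on the minus strand, chr2:172370521-172370720 on the minus strand, chr5:30666736-30666935 on the plus strand and chr9:83834539-83834738 on the plus strand.
Cdk1: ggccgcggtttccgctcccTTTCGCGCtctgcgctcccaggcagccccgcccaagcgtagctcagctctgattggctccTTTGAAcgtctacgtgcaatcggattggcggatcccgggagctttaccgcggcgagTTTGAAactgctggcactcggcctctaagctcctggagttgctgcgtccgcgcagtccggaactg
Aurka: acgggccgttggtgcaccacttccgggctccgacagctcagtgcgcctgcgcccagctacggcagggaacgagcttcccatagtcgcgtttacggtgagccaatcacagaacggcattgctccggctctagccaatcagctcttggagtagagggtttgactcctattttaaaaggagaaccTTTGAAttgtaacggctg
Cenpa: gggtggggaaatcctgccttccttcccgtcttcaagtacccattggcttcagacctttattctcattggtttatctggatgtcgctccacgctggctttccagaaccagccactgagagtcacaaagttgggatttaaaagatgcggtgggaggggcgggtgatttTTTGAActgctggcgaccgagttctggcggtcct
Ttk: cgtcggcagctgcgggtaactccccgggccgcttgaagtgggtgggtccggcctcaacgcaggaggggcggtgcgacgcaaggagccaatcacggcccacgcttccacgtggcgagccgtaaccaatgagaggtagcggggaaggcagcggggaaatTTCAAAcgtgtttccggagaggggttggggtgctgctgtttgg
In the full window of 300 bases, 250 before and 50 after the start, an E2F word was present in 9 of 19 replication genes (47.4%) and in 1 of 17 mitosis genes (5.88%), against 2.6% of the promoters of 27025 genes. The E2F word of a mitosis gene was in Cdk1. A CHR word was present in 13 of 17 mitosis genes (76.5%) and in 4 of 19 replication genes (21.1%), against 21.7% of all. The NF-Y word CCAAT was found in 15 genes of each class, 78.9% of the replication and 88.2% of the mitosis genes, against 41.1% of all. One E2F site, in Mcm7, overlapped a CCAAT. The genes with an E2F word were Mcm3, Mcm5, Mcm6, Mcm7, Cdc6, Cdt1, Orc1, Rfc3 and Pola1. Among them, Rfc3 and Pola1 were called in none of the comparisons with MEF, while Mcm3, Mcm7, Cdc6 and Cdt1 were called in each. Mcm2, Mcm10, Orc6 and Cdc45 were called in each too, and their windows held no E2F word. Birc5, a mitosis gene called in 3 of the comparisons, held no CHR word. A word in a window is a description of the sequence and not a measured binding site, and the absence of these letters says nothing about a factor.

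Counts assigned to genes ranged from 20071567 to 45914262 per library, and 3 counts correspond to between 0.0653 and 0.149 CPM (counts scaled to a common library total). The labelled cell types carried their markers: the summed CPM of 7 XEN markers was between 208 and 257 in MEF and between 2717 and 31233 in XEN and iXEN libraries. XEN 7 had the lowest sums, 2717 CPM in ESC medium and 4536 CPM in XEN medium, with Lama1 at 1465 and 3090 CPM and Sox7 at 0.476 and 0.822 CPM. Gata4 and Gata6 were also lowest there in both media. Foxq1 was instead highest in XEN 7 in both media (136 and 163 CPM), and Sox17 in ESC medium (377 CPM). Of the endothelial genes, Pecam1 was at 93.2 and 183 CPM in XEN 7. Cdh5 (102 and 311 CPM) and Kdr (0.608 and 8.66 CPM) were lowest there in ESC medium and highest in XEN medium, among XEN and iXEN libraries. The summed CPM of 7 fibroblast markers was between 36184 and 49259 in MEF. It reached 7825 in XEN 1 and 334 in XEN 2 in ESC medium, and 2110 in iXEN 2 and 986 in iXEN 9 in XEN medium, with no more than 22.7 in the other XEN and iXEN libraries. Of these, XEN 1 and iXEN 2 held transcripts of all 7 markers. In XEN 2 and iXEN 9 the sum was collagen and Lox for the most part. Thy1 was at 0.312 and 0.209 CPM there, Lum at 0.356 and 0 CPM and Postn at 0.801 and 0.0597 CPM. Of 5 macrophage markers, C1qa and Emr1 were at 0 in every XEN and iXEN library, and the list summed to between 25.4 and 87.4 CPM in MEF and between 2.57 and 28.1 CPM elsewhere. Csf1r was not lower throughout. It reached 22.6 CPM in iXEN 6 and 13.3 CPM in XEN 2 in ESC medium, against 5.21 to 17.5 CPM in MEF. Pluripotency markers summed to no more than 63.1 CPM, in iXEN 9 in XEN medium, where Pou5f1 was 60.2 CPM. The sums and the counts of calls that these libraries touch are given below also without them.

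All 45 members were detected in each of the 17 libraries, and together they took between 0.218% and 0.811% of the counts in genes. Summed over the 24 replication genes, the level was 1048, 1513 and 940 CPM in MEF 1, 2 and 3. ESC medium gave 1535, 2587 and 2625 CPM in XEN 1, 2 and 7, and 2714, 2323, 1980 and 2467 CPM in iXEN 1, 2, 6 and 9. XEN medium gave 2727, 4148 and 2904 CPM in XEN and 3965, 1944, 3797 and 2247 CPM in iXEN. Every XEN and iXEN library thus stood above the highest MEF library. Group means were 1167 ± 305 (SD, n = 3) in MEF, 2249 ± 619 (n = 3) in XEN and 2371 ± 307 (n = 4) in iXEN in ESC medium. In XEN medium they were 3259 ± 774 (n = 3) for XEN and 2988 ± 1040 (n = 4) for iXEN. These means are 1.93, 2.03, 2.79 and 2.56 times the MEF mean.

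For the 21 mitosis genes the sums in MEF 1, 2 and 3 were 1377, 1979 and 1161 CPM. In ESC medium they were 1425, 2442 and 2673 CPM in XEN 1, 2 and 7, and 3039, 2579, 1980 and 2378 CPM in iXEN 1, 2, 6 and 9. In XEN medium they were 3430, 3711 and 3651 CPM in XEN and 4103, 2082, 3723 and 1947 CPM in iXEN. Here the ranges overlap: XEN 1 in ESC medium and iXEN 9 in XEN medium were below MEF 2. The means were 1506 ± 424 in MEF, 2180 ± 664 and 2494 ± 440 in XEN and iXEN in ESC medium, then 3597 ± 148 and 2964 ± 1108 with XEN medium, which is 1.45, 1.66, 2.39 and 1.97 times the MEF mean. A sum is carried by its most abundant transcripts: the top 3 genes gave between 25.7% and 34.1% of the replication sum and between 27.6% and 39.6% of the mitosis sum. Taken gene by gene, the lowest of the 5 group means was in MEF for 20 of 24 replication and 19 of 21 mitosis genes, and the highest in XEN cells in XEN medium for 16 and 18.

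Without XEN 1 the mean in XEN cells in ESC medium was 2606 CPM for replication and 2558 CPM for mitosis genes. It was 2080 and 2049 CPM without XEN 2, and 2061 and 1933 CPM without XEN 7. In XEN cells in XEN medium it was 3437 and 3570 CPM without XEN 7. For iXEN cells in XEN medium it was 3336 and 3257 CPM without iXEN 2, and 3235 and 3303 CPM without iXEN 9. Each of these means was above the mean of MEF.

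The ratio of the mitosis to the replication sum was 1.31, 1.31 and 1.23 in MEF 1, 2 and 3. It ran from 0.866 to 1.12 in the other libraries except XEN 1 and XEN 7 in XEN medium, both at 1.26. The difference between MEF and the other groups was therefore larger in the replication sum than in the mitosis sum, in the group means of each comparison.

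**Figure D1:**
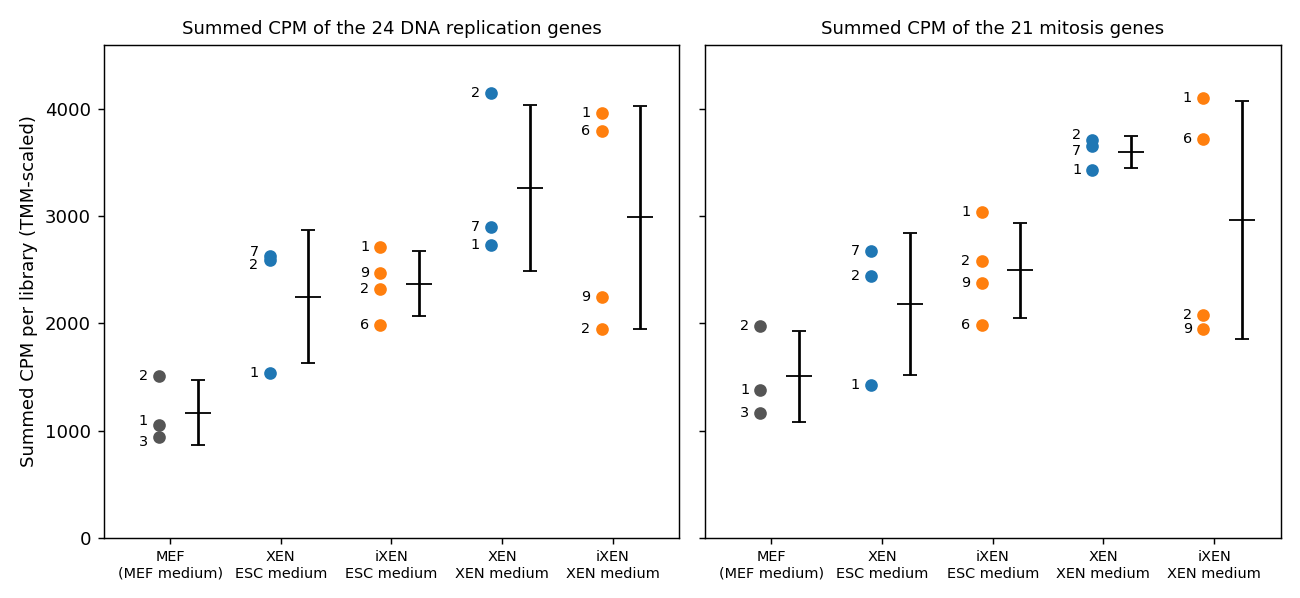
Summed CPM of the 24 replication genes and of the 21 mitosis genes in each of the 17 libraries, by group, with points marked by library number and the group mean and SD. In the replication panel every XEN and iXEN library lies above MEF 2 at 1513 CPM, and in the mitosis panel the iXEN libraries in XEN medium spread from 1947 to 4103 CPM.

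Within a group, the same libraries were often the highest or the lowest across members. MEF 2 was the highest MEF library for all 45 members, and MEF 3 the lowest for 18 of 24 replication and 18 of 21 mitosis genes. In ESC medium, XEN 1, the library with 7825 CPM of fibroblast markers, was the lowest XEN library for 20 replication and 16 mitosis genes. In XEN medium, iXEN 2 was lowest for 19 replication genes and iXEN 9 for 15 mitosis genes, the same libraries that held 2110 and 986 CPM of fibroblast markers. The part of those transcripts in the lower levels was not tested. The median coefficient of variation in MEF was 29.8% for replication and 30.6% for mitosis genes, against 14.6% over 15267 genes, so these genes varied more between MEF libraries than the median gene. In the other groups the medians lay between 18.2% and 46.5% for the members, and between 35.1% and 50.9% over all genes.

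Levels were compared gene by gene with edgeR's quasi-likelihood test, and a gene is called where its Benjamini-Hochberg adjusted p, over all genes tested, is under 0.05. Every member had enough counts to be tested in every comparison, and no member was called lower than in MEF in any of the 4. In ESC medium, XEN cells had 10 members called higher than MEF, 9 of 24 replication genes and 1 of 21 mitosis genes, where 11.4% of 14001 genes were called higher. The iXEN cells in ESC medium had 22, namely 14 replication and 8 mitosis genes, against 20.8% of 14352 genes. In XEN medium, XEN cells had 35, namely 19 and 16, against 23% of 14390 genes. The iXEN cells in XEN medium had 22, namely 16 and 6, against 17.7% of 14438 genes. The 1 mitosis call of 21 in XEN cells in ESC medium, not above the background of that comparison, became 2 with RLE size factors, 3 with DESeq2 and 4 in a fit over all 17 libraries.

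Among the 45 members, the median fold change was larger in the replication than in the mitosis class in each comparison. The median log2 fold change over MEF was 0.95 for replication and 0.50 for mitosis genes in XEN cells in ESC medium, 1.06 and 0.75 in iXEN in ESC medium, 1.48 and 1.22 in XEN in XEN medium, and 1.43 and 0.89 in iXEN in XEN medium. Over all genes tested the median was −0.03, 0.03, 0.02 and 0.06. Every library of the group was above every MEF library for 17 of the 45 members in XEN in ESC medium, where this held for 22.8% of all genes. The same was seen for 20 members in iXEN in ESC medium (23.9% of all genes), for 37 in XEN in XEN medium (30.1%) and for 23 in iXEN in XEN medium (23.7%). By class these were 12 of 24 replication and 5 of 21 mitosis genes, then 14 and 6, 19 and 18, and 16 and 7. The mitosis counts of 5 and 6 in ESC medium were near the share over all genes.

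**Figure D2:**
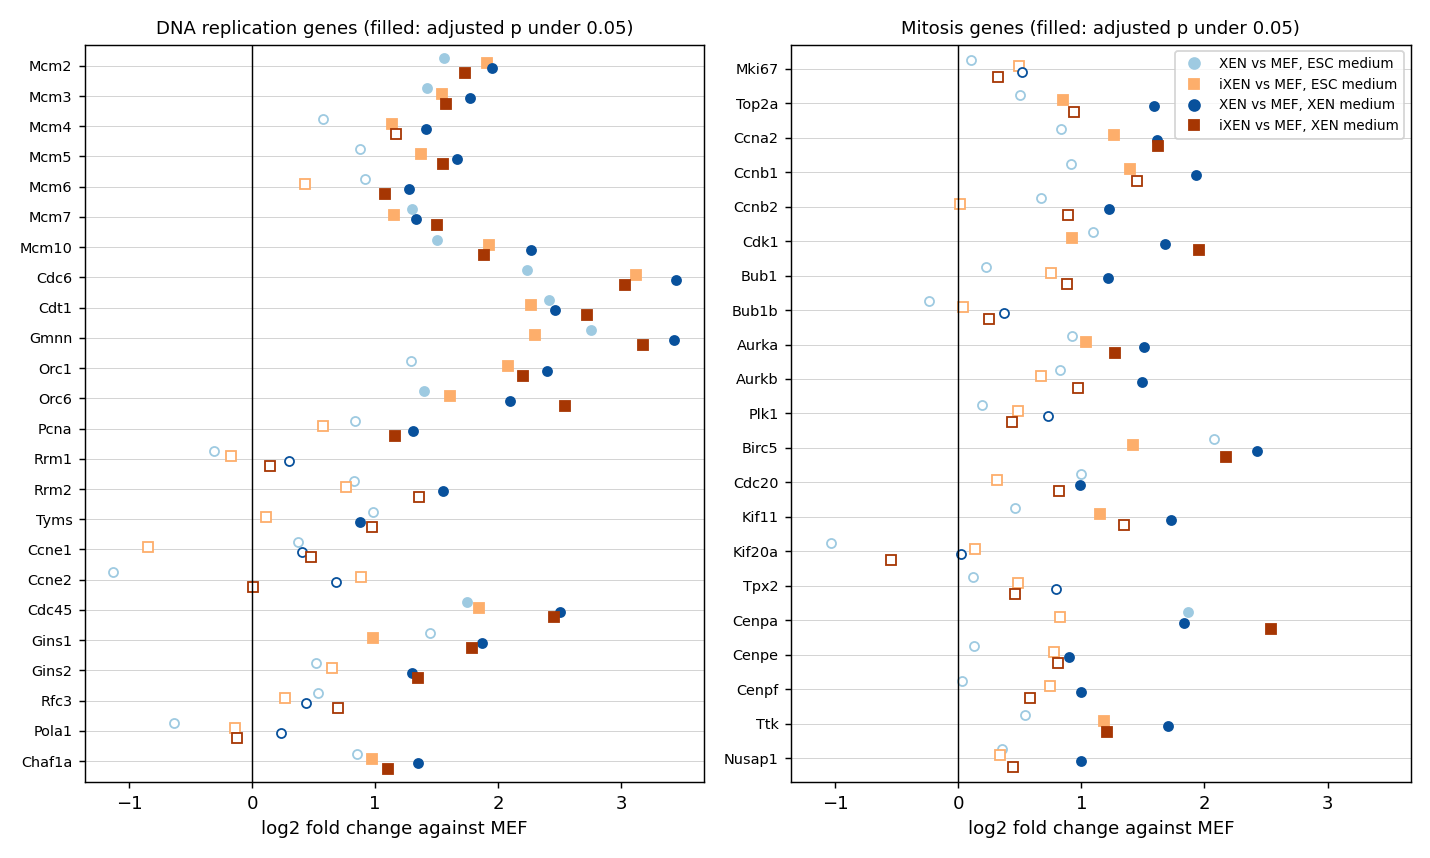
Log2 fold change over MEF of each of the 45 members in the 4 comparisons, as circles for XEN and squares for iXEN, filled where the adjusted p is under 0.05. Replication members such as Gmnn, Cdc6 and Cdt1 lie above 2 in each comparison, while Mki67, Plk1 and Rrm1 lie between −0.31 and 0.73.

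Origin recognition and licensing genes were higher than in MEF in nearly every comparison, and Gmnn or Cdc6 held the largest fold change of all members in each. Cdc6, which loads the MCM ring, was at 10.2, 18.7 and 8.17 CPM in MEF 1, 2 and 3. Levels in ESC medium were 33.8, 87.2 and 51.0 CPM in XEN 1, 2 and 7 and 172, 106, 40.4 and 102 CPM in iXEN 1, 2, 6 and 9. Levels in XEN medium were 108, 182 and 113 CPM in XEN and 206, 38.2, 105 and 54.7 CPM in iXEN. No XEN or iXEN library overlapped the MEF range, although the iXEN libraries spread widely among themselves in both media. The log2 fold changes over MEF were 2.23 (SE 0.49, adjusted p = 0.0229) in XEN and 3.12 (SE 0.53, adjusted p = 0.00158) in iXEN in ESC medium. They were 3.45 (SE 0.41, adjusted p = 0.00168) and 3.03 (SE 0.64, adjusted p = 0.0128) in XEN medium.

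Cdt1, the partner of Cdc6 in loading, was at 11.3, 19.9 and 15.7 CPM in MEF 1, 2 and 3. In ESC medium Cdt1 was at 62.2, 88.5 and 96.8 CPM in XEN 1, 2 and 7 and at 51.8, 69.4, 112 and 66.7 CPM in iXEN 1, 2, 6 and 9. The XEN-medium levels were 87.4, 97.7 and 74.1 CPM in XEN and 98.0, 70.8, 154 and 83.5 CPM in iXEN. The lowest of these 14 libraries, iXEN 1 in ESC medium, was still above every MEF library. Log2 fold changes were 2.41 (SE 0.32, adjusted p = 0.00699), 2.27 (SE 0.32, adjusted p = 0.000552), 2.46 (SE 0.26, adjusted p = 0.00119) and 2.72 (SE 0.36, adjusted p = 0.00304), in the order XEN and iXEN in ESC medium and XEN and iXEN in XEN medium. Geminin (Gmnn), the inhibitor of Cdt1, was higher as well. Its level was 11.9, 16.7 and 8.74 CPM in MEF. The ESC-medium levels were 37.4, 65.0 and 146 CPM in XEN 1, 2 and 7 and 75.4, 58.1, 47.5 and 61.2 CPM in iXEN 1, 2, 6 and 9. In XEN medium Gmnn was at 133, 125 and 143 CPM in XEN and at 126, 55.8, 164 and 97.7 CPM in iXEN. In ESC medium XEN 7 had the most Gmnn and XEN 1 the least of the XEN and iXEN libraries. The log2 fold changes of Gmnn in the same order were 2.75 (SE 0.57, adjusted p = 0.0202), 2.30 (SE 0.28, adjusted p = 0.000256), 3.42 (SE 0.27, adjusted p = 0.000506) and 3.17 (SE 0.44, adjusted p = 0.00342).

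Of the origin recognition complex, both Orc6 and Orc1 had higher fitted levels than MEF in each comparison. Orc6, its smallest subunit, ran from 26.6 to 39.0 CPM in MEF and from 64.2 to 311 CPM in the other libraries, and was called in each, with log2 fold changes of 1.40 (SE 0.25, adjusted p = 0.0139), 1.61 (SE 0.31, adjusted p = 0.00324), 2.09 (SE 0.34, adjusted p = 0.00421) and 2.54 (SE 0.40, adjusted p = 0.00496). Orc1, the ATPase subunit, ran from 5.79 to 9.44 CPM in MEF and from 13.7 to 62.5 CPM elsewhere. It was called in the 3 other comparisons, while XEN in ESC medium gave 1.29 with adjusted p = 0.0552.

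The MCM genes encode the ring helicase, and Mcm2 was the subunit with the smallest p in both comparisons in ESC medium. Its level was 54.7, 81.8 and 56.1 CPM in MEF 1, 2 and 3. In ESC medium Mcm2 was at 155, 207 and 200 CPM in XEN 1, 2 and 7 and at 209, 219, 206 and 327 CPM in iXEN 1, 2, 6 and 9. XEN medium gave 199, 329 and 215 CPM in XEN and 257, 131, 312 and 143 CPM in iXEN. All 14 were above MEF, with iXEN 2 and iXEN 9 in XEN medium the lowest of them. The log2 fold changes of Mcm2 were 1.56 (SE 0.27, adjusted p = 0.0127), 1.91 (SE 0.24, adjusted p = 0.00033), 1.95 (SE 0.29, adjusted p = 0.00328) and 1.73 (SE 0.37, adjusted p = 0.0136). Mcm3 and Mcm7 were called in each comparison too, in the same order at 1.42 (SE 0.33, adjusted p = 0.0273), 1.54 (SE 0.20, adjusted p = 0.000412), 1.77 (SE 0.23, adjusted p = 0.00214) and 1.58 (SE 0.30, adjusted p = 0.00881) for Mcm3. For Mcm7 the values were 1.30 (SE 0.31, adjusted p = 0.028), 1.15 (SE 0.22, adjusted p = 0.00291), 1.34 (SE 0.29, adjusted p = 0.0118) and 1.50 (SE 0.33, adjusted p = 0.0139). The other subunits of the ring were called in fewer comparisons. Mcm5 was called in all but XEN in ESC medium (0.88, adjusted p = 0.135). Mcm4 was called in iXEN in ESC medium (1.13) and XEN in XEN medium (1.41). Mcm6 was called only in the 2 comparisons in XEN medium, with 1.27 and 1.08. Mcm10, which helps the helicase start, was called in each, with log2 fold changes of 1.50 (SE 0.37, adjusted p = 0.0324), 1.92 (SE 0.28, adjusted p = 0.00074), 2.26 (SE 0.39, adjusted p = 0.00534) and 1.89 (SE 0.40, adjusted p = 0.0128).

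Cdc45 and the GINS subunits complete the active helicase. Cdc45 was at 14.8, 21.5 and 12.1 CPM in MEF 1, 2 and 3. ESC medium gave 34.3, 56.0 and 70.0 CPM in XEN 1, 2 and 7 and 76.5, 54.4, 52.0 and 46.4 CPM in iXEN 1, 2, 6 and 9. Levels in XEN medium were 110, 94.6 and 69.4 CPM in XEN and 86.6, 71.1, 119 and 71.5 CPM in iXEN. The groups did not overlap MEF at any point. Cdc45 differed from MEF by 1.74 (SE 0.38, adjusted p = 0.0222), 1.85 (SE 0.28, adjusted p = 0.000842), 2.50 (SE 0.30, adjusted p = 0.00164) and 2.45 (SE 0.32, adjusted p = 0.00281) on the log2 scale. Gins1 ran from 4.48 to 7.05 CPM in MEF and from 9.39 to 25.6 CPM in all other libraries, and was called in all but XEN in ESC medium (1.44, adjusted p = 0.0507). Gins2 was called only in XEN medium, with 1.30 in XEN and 1.35 in iXEN. The iXEN call of Gins2 held in 4 of 13 alternative fits, and in 1 of the 7 that left out 1 library.

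The genes of DNA synthesis and nucleotide supply were each called in 0 to 3 of the comparisons with MEF. Pcna, the sliding clamp of the polymerases, was at 105, 139 and 113 CPM in MEF 1, 2 and 3. In ESC medium Pcna was at 149, 263 and 222 CPM in XEN 1, 2 and 7 and at 208, 192, 112 and 189 CPM in iXEN 1, 2, 6 and 9. The XEN-medium levels were 245, 400 and 240 CPM in XEN and 304, 179, 348 and 220 CPM in iXEN. Only iXEN 6 in ESC medium lay within the MEF range. Pcna was called in XEN medium, at 1.31 (SE 0.27, adjusted p = 0.00998) in XEN and 1.16 (SE 0.29, adjusted p = 0.0212) in iXEN, and not in ESC medium (0.84, adjusted p = 0.0812, and 0.57, adjusted p = 0.0883). Chaf1a, a subunit of the histone chaperone that follows the clamp, was called in all but XEN in ESC medium, with values between 0.98 and 1.34.

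Rrm2, the regulated subunit of ribonucleotide reductase, and Tyms, thymidylate synthase, were called only in XEN cells in XEN medium, at 1.55 and 0.88. Tyms is uncertain, since the pseudogene Tyms-ps is listed beside it and could share reads, though no library held more than 0.239 CPM of it. Rrm1, the large subunit of the reductase, was not called anywhere: it ran from 116 to 211 CPM in MEF and from 81.3 to 288 CPM elsewhere, with log2 fold changes of −0.31 (SE 0.36), −0.17 (SE 0.29), 0.30 (SE 0.38) and 0.14 (SE 0.31) and adjusted p of 0.533 or more. Rfc3, a clamp loader subunit, and Pola1, the catalytic subunit of the priming polymerase, were also not called. Rfc3 gave 0.54 (SE 0.30), 0.26 (SE 0.20), 0.43 (SE 0.31) and 0.70 (SE 0.30), with a lowest adjusted p of 0.105, and Pola1 gave −0.63 (SE 0.44), −0.14 (SE 0.34), 0.23 (SE 0.20) and −0.12 (SE 0.44), with a lowest adjusted p of 0.316. The cyclin E genes, whose products switch on Cdk2 at the start of S phase, were not called either. Ccne1 gave 0.37 (SE 0.57), −0.84 (SE 0.40), 0.40 (SE 0.48) and 0.48 (SE 0.34), with a lowest adjusted p of 0.115. Ccne2 gave −1.13 (SE 0.85), 0.88 (SE 0.64), 0.68 (SE 0.50) and 0.01 (SE 0.91), with a lowest adjusted p of 0.294. Its level spread from 0.952 CPM in XEN 7 to 21.6 CPM in iXEN 1, both in ESC medium, against 5.28 to 9.89 CPM in MEF.

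**Figure D3:**
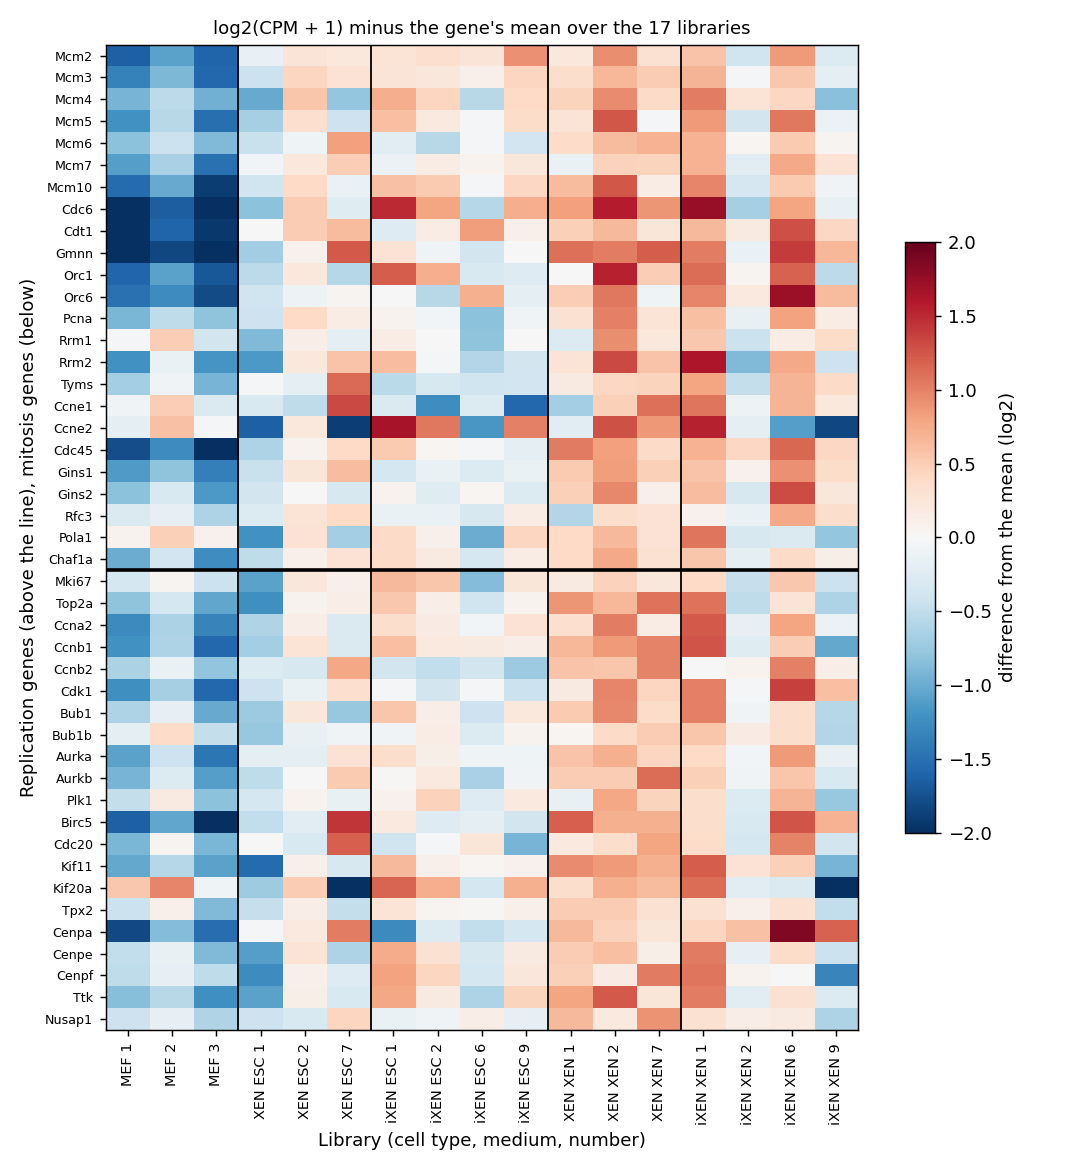
Log2(CPM + 1) of each of the 45 members in each of the 17 libraries, relative to the member's mean over all 17, with colours clipped at 2 on either side. The MEF columns are the lowest for most members, MEF 2 being the highest of the 3, and among the XEN-medium iXEN columns those of iXEN 2 and iXEN 9 are lower than those of iXEN 1 and iXEN 6 for most mitosis genes.

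Among the mitosis genes, Cdk1, the entry kinase, and Ccna2 were each called in 3 of the comparisons with MEF, Ccnb1 in 2 and Ccnb2 in 1. Cdk1 was at 65.9, 98.1 and 52.0 CPM in MEF 1, 2 and 3. In ESC medium Cdk1 was at 117, 142 and 197 CPM in XEN 1, 2 and 7 and at 151, 121, 153 and 116 CPM in iXEN 1, 2, 6 and 9. XEN medium gave 176, 307 and 211 CPM in XEN and 313, 151, 402 and 236 CPM in iXEN. All 14 libraries were above MEF. Cdk1 was called in iXEN in ESC medium (0.93, SE 0.24, adjusted p = 0.0139), in XEN in XEN medium (1.68, SE 0.33, adjusted p = 0.00822) and in iXEN in XEN medium (1.96, SE 0.40, adjusted p = 0.0109). In XEN in ESC medium it was 1.09 (SE 0.34) with adjusted p = 0.0582.

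Ccnb1, cyclin B1, was at 75.8, 114 and 58.8 CPM in MEF 1, 2 and 3. Levels in ESC medium were 109, 213 and 143 CPM in XEN 1, 2 and 7 and 267, 202, 200 and 193 CPM in iXEN 1, 2, 6 and 9. Levels in XEN medium were 280, 319 and 352 CPM in XEN and 422, 150, 248 and 86.5 CPM in iXEN. Only XEN 1 in ESC medium and iXEN 9 in XEN medium lay within the MEF range. Ccnb1 was called in iXEN in ESC medium (1.39, SE 0.26, adjusted p = 0.00265) and XEN in XEN medium (1.93, SE 0.28, adjusted p = 0.00317). In iXEN in XEN medium it was 1.45 with a wide error (SE 0.53, adjusted p = 0.0701). Ccna2, cyclin A2, which acts in both S phase and mitosis, was called in all but XEN in ESC medium. In iXEN in ESC medium its value was 1.27 (SE 0.22, adjusted p = 0.00202), the smallest p of the mitosis genes there, and in XEN medium it was 1.61 in XEN and 1.62 in iXEN. Ccnb2, cyclin B2, was called only in XEN in XEN medium, at 1.22, and stood at 0.02 in iXEN in ESC medium.

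Birc5 or Cenpa held the largest fold change of the mitosis class in each comparison. Cenpa, the histone variant that marks centromeres, was at 20.9, 40.7 and 25.7 CPM in MEF 1, 2 and 3. In ESC medium Cenpa was at 74.1, 86.5 and 154 CPM in XEN 1, 2 and 7 but at 30.6, 62.5, 53.2 and 58.6 CPM in iXEN 1, 2, 6 and 9. The XEN-medium levels were 119, 104 and 89.8 CPM in XEN and 102, 114, 274 and 173 CPM in iXEN. It was the one mitosis gene called in XEN cells in ESC medium, at 1.87 (SE 0.41, adjusted p = 0.0223), and was not called in iXEN in ESC medium (0.83, adjusted p = 0.0558), where iXEN 1 lay inside the MEF range. In XEN medium its values were 1.84 (SE 0.29, adjusted p = 0.00377) in XEN and 2.54 (SE 0.46, adjusted p = 0.00709) in iXEN. Birc5, survivin, a subunit of the chromosomal passenger complex, was at 43.5, 65.6 and 32.1 CPM in MEF. The ESC-medium levels were 96.5, 118 and 371 CPM in XEN 1, 2 and 7 and 157, 114, 121 and 106 CPM in iXEN 1, 2, 6 and 9. XEN medium gave 313, 224 and 223 CPM in XEN and 174, 110, 328 and 222 CPM in iXEN. No library overlapped MEF, and XEN 7 in ESC medium was highest. Birc5 gave 2.08 (SE 0.61, adjusted p = 0.0508) in XEN in ESC medium, and it was called there with RLE size factors (adjusted p = 0.0492), with DESeq2 (0.00682), in the fit over all 17 libraries (0.0095) and without any 1 of the XEN libraries. It was not called there with no filter on low counts, with the replicate number as a block, or without any 1 of the MEF libraries. Without XEN 7 its value was 1.27 (adjusted p = 0.0321). It was called in iXEN in ESC medium (1.42, SE 0.27, adjusted p = 0.00308), XEN in XEN medium (2.42, SE 0.32, adjusted p = 0.00219) and iXEN in XEN medium (2.18, SE 0.44, adjusted p = 0.0109). Aurkb, the kinase of the same complex, was called only in XEN in XEN medium (1.49).

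Aurka, the spindle pole kinase, was called in all but XEN in ESC medium, with values of 1.04, 1.51 and 1.28. Its activator Tpx2 was called nowhere, at 0.12 (SE 0.33), 0.48 (SE 0.24), 0.79 (SE 0.27, adjusted p = 0.0534) and 0.46 (SE 0.31). The checkpoint genes also differed among themselves. Ttk was called in the same 3 comparisons (1.18, 1.70 and 1.21). Its call in iXEN in XEN medium held in 6 of 13 alternative fits. Bub1 was called only in XEN in XEN medium (1.21). Bub1b was called nowhere, at −0.24 (SE 0.32), 0.04 (SE 0.22), 0.38 (SE 0.26, adjusted p = 0.274) and 0.25 (SE 0.32). Plk1, the Polo kinase of mitotic entry and exit, was not called, at 0.20 (SE 0.31), 0.48 (SE 0.28), 0.73 (SE 0.35, adjusted p = 0.131) and 0.44 (SE 0.40). Cdc20, which activates the anaphase ligase, was called only in XEN in XEN medium (0.99, adjusted p = 0.0479).

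Of the kinesins, Kif11, which pushes spindle poles apart, gave the smallest p of any mitosis gene in XEN cells in XEN medium. Kif11 was at 42.1, 57.9 and 40.7 CPM in MEF and at 167, 157 and 143 CPM in XEN 1, 2 and 7 in XEN medium, a difference of 1.73 (SE 0.20, adjusted p = 0.00147). It was also called in iXEN in ESC medium, at 1.15. Kif20a, a kinesin of cytokinesis, was called nowhere and ranged from 6.21 CPM in XEN 7 in ESC medium to 151 CPM in iXEN 1 in ESC medium, around 63.2 to 132 CPM in MEF. Its fold changes were −1.04 (SE 0.86), 0.13 (SE 0.37), 0.02 (SE 0.29) and −0.55 (SE 0.70), with a lowest adjusted p of 0.393. Top2a, the topoisomerase that untangles chromatids, was called in iXEN in ESC medium (0.85) and XEN in XEN medium (1.59). The kinetochore genes Cenpe and Cenpf and the spindle gene Nusap1 were called only in XEN in XEN medium, at 0.90, 1.0 and 1.0.

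Mki67, which encodes the proliferation marker Ki-67, was not called in any comparison with MEF. Its level was 197, 262 and 188 CPM in MEF 1, 2 and 3. ESC medium gave 119, 297 and 271 CPM in XEN 1, 2 and 7 and 396, 370, 138 and 297 CPM in iXEN 1, 2, 6 and 9. Levels in XEN medium were 286, 346 and 294 CPM in XEN and 331, 182, 368 and 187 CPM in iXEN. Only in XEN cells in XEN medium did all libraries exceed MEF. Log2 fold changes of Mki67 were 0.10 (SE 0.40), 0.50 (SE 0.35, adjusted p = 0.285), 0.51 (SE 0.20, adjusted p = 0.0799) and 0.32 (SE 0.32). In iXEN in ESC medium 1 library decides the call: without iXEN 6, at 138 CPM, the value was 0.74 with adjusted p = 0.0127.

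Some counts depend on single libraries. The shares of all genes called in the same refits are not given here. These counts therefore cannot tell a change in the members from a change over all genes. In XEN cells in ESC medium, leaving out MEF 1 or MEF 3 left 1 of the 10 calls, Cdt1, and leaving out MEF 2 left Mcm2 and Cdt1. Leaving out XEN 1, with its fibroblast transcripts, or XEN 7 gave 13 calls, and leaving out XEN 2 gave 16, of which 14, with Orc1, Gins1, Cdk1 and Birc5 added, were higher and 2, Ccne2 and Pola1, lower than MEF. In XEN cells in XEN medium, leaving out XEN 7 gave 35 calls. In iXEN cells in XEN medium, leaving out MEF 1 or MEF 3 left Cdt1, Gmnn, Orc6, Cdc45 and Cenpa, 5 of the 22. Leaving out iXEN 2, with all the fibroblast markers, gave 23 calls, and leaving out iXEN 9, with mostly collagen transcripts, gave 25. Without both there were 33 calls, with 14 mitosis genes in place of 6. In iXEN cells in ESC medium the mitosis calls went from 8 to 4 without MEF 1 or MEF 3 and to 13 without iXEN 6. Cdt1 was called in all 4 comparisons with any 1 library left out, with a highest adjusted p of 0.0489.

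No member was called between iXEN and XEN cells in the same medium, where edgeR called 0% of 12944 genes in ESC medium and 0% of 13263 in XEN medium. In ESC medium 2 members, Tyms and Cenpa, had an unadjusted p under 0.05, as did 1770 of all genes, and DESeq2 called 536 genes but no member. Cenpa was at 30.6 to 62.5 CPM in the iXEN libraries against 74.1 to 154 CPM in XEN, a difference of −1.04 on the log2 scale (95% interval −1.87 to −0.21, adjusted p = 0.344). Tyms, at 28.8 to 33.5 CPM in iXEN against 37.1 to 94.5 CPM in XEN, differed by −0.87 (−1.70 to −0.04, adjusted p = 0.36). The groups did not overlap for these 2 and for Ccnb2 (−0.66), each lower in iXEN, where 6.3% of all genes lay below XEN in this way. Ccne1 (−1.22, −2.54 to 0.11), Ccne2 (2.02, −0.19 to 4.22) and Cenpf (0.72, −0.23 to 1.67) had the next smallest p and overlapped. In XEN medium no member had an unadjusted p under 0.05, against 544 of all genes, and DESeq2 called 138 genes and no member. The members with the smallest p there were Nusap1 (−0.57, −1.28 to 0.14), Cenpa (0.67, −0.21 to 1.56), Aurkb (−0.54, −1.26 to 0.18), Orc6 (0.44, −0.55 to 1.42), Mcm10 (−0.38, −1.30 to 0.54) and Chaf1a (−0.25, −0.87 to 0.37), all with adjusted p = 0.985. These intervals leave room for differences of over 1 on the log2 scale in some genes. Tpx2 alone had every iXEN library below every XEN library in XEN medium, which held for 2.38% of all genes.

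For all 3 XEN numbers the sums were higher in XEN medium than in ESC medium, while the iXEN numbers differed in direction, and no member passed the test of the medium in either cell type. In XEN cells the replication sum in XEN medium was 1.78, 1.60 and 1.11 times that in ESC medium for XEN 1, 2 and 7, and the mitosis sum 2.41, 1.52 and 1.37 times. Of the members, 14 of 24 replication and 18 of 21 mitosis genes were higher in XEN medium in all 3 pairs. XEN 7 gave the smallest ratios, and XEN 1 in ESC medium is the library with fibroblast transcripts. With edgeR 0 members were called, as were 0% of 13241 genes and also 0 without XEN 7 in both media or without XEN 1 in ESC medium, and 6 members had an unadjusted p under 0.05, against 746 of all genes, while DESeq2 called 89 genes and no member. Ccnb1 was at 109 and 280, 213 and 319, and 143 and 352 CPM in ESC and XEN medium in XEN 1, 2 and 7, a fitted difference of 1.0 (0.20 to 1.81, adjusted p = 0.8) that did not pass the test. Cdc6 (1.20, 0.17 to 2.23), Kif11 (1.26, 0.21 to 2.31), Ttk (1.15, 0.12 to 2.18), Orc1 (1.08, −0.12 to 2.29) and Gins2 (0.76, −0.02 to 1.55) had the same adjusted p of 0.8. The median over the replication genes was 0.63 and over the mitosis genes 0.65, against −0.04 over all genes. For 13 members, 3 replication and 10 mitosis genes, all XEN-medium libraries were above all ESC-medium libraries, as for 7.61% of all genes.

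In iXEN cells the numbers differed in direction. Whether a number marks the same line is not stated, and same-numbered iXEN libraries correlated across media by only −0.036 to 0.19. The replication sum in XEN medium was 1.46 and 1.92 times that in ESC medium in iXEN 1 and 6, and 0.837 and 0.911 times in iXEN 2 and 9. The mitosis sum changed by factors of 1.35 and 1.88 in iXEN 1 and 6, and of 0.807 and 0.818 in iXEN 2 and 9. The libraries in which the sums were lower are those with 2110 and 986 CPM of fibroblast markers in XEN medium, and their part in it was not tested. Ccne1, Cdc45, Cdt1, Gins1, Mcm6 and Orc6 of the replication genes and Cenpa, Cdk1 and Ccnb2 of the mitosis genes were higher in XEN medium for all 4 numbers. Cenpa went from 30.6 to 102, 62.5 to 114, 53.2 to 274 and 58.6 to 173 CPM in iXEN 1, 2, 6 and 9. Its difference was 1.69 (0.85 to 2.53, adjusted p = 0.0678) with edgeR, past the threshold with DESeq2 (adjusted p = 0.00297), in a fit over all 17 libraries (0.0449) and without iXEN 2 in XEN medium (0.0492). The next were Cdk1 (1.02, 0.31 to 1.73, adjusted p = 0.119), Ccne1 (1.32, 0.37 to 2.26, adjusted p = 0.124), Ccnb2 (0.86, 0.21 to 1.50, adjusted p = 0.132), Tyms (0.85, 0.18 to 1.51, adjusted p = 0.143) and Gins1 (0.78, 0.11 to 1.46, adjusted p = 0.169). DESeq2 also called Ccne1 (adjusted p = 0.0453). No member was called by edgeR, which called 0% of 12920 genes, and 0 members without iXEN 2 and 9 in both media, with 9 members and 3018 genes at an unadjusted p under 0.05 and 1621 genes called by DESeq2. Medians were 0.38 for replication and 0.13 for mitosis genes, against 0.08 for all. All XEN-medium libraries were above all ESC-medium libraries for Ccne1, Gins1, Mcm6, Cenpa and Ccnb2, as for 6.25% of all genes.

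**Figure D4:**
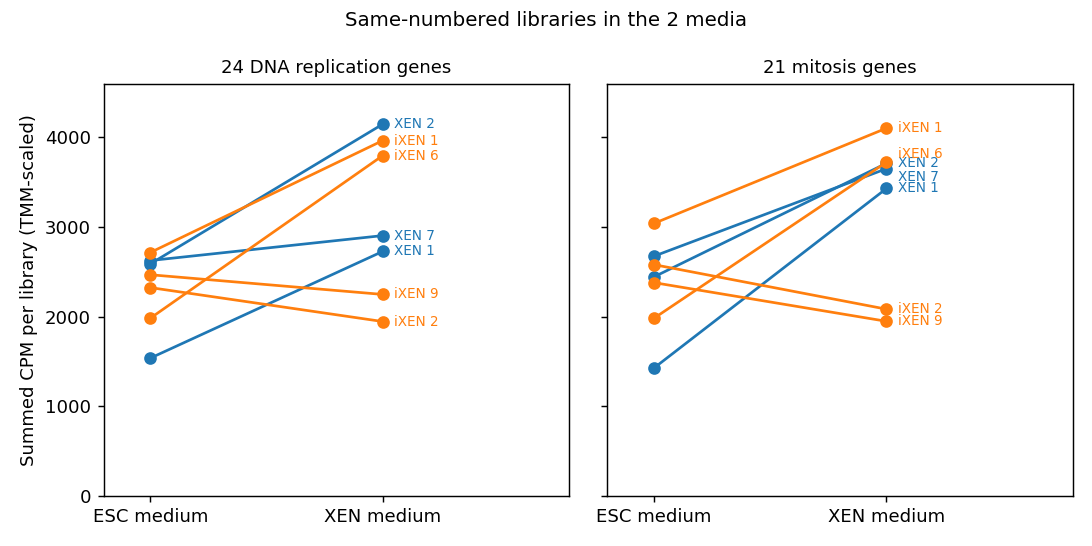
Summed CPM of replication and mitosis genes of each XEN and iXEN library, ESC medium on the left and XEN medium on the right, with same-numbered libraries joined. All 3 XEN numbers go up in both panels, iXEN 1 and 6 go up, and iXEN 2 and 9 go down.

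Whether the effect of the medium differed between cell types was tested as an interaction over the 14 XEN and iXEN libraries. Neither class had a called member, nor any of 14357 genes (0%). At an unadjusted p under 0.05 there were 2131 genes and 1 member, Cenpa, whose change with XEN medium was larger in iXEN by 1.71 (0.55 to 2.86, adjusted p = 0.236). DESeq2 called 498 genes and no member. The other members with the smallest p were Tyms (0.95), Ccne2 (−2.65), Ccne1 (1.27), Tpx2 (−0.70) and Ttk (−1.14).

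Genes of the same processes outside the 45 were counted in the same way. Of 48 further replication genes, 13, 27, 37 and 30 were called higher than MEF in XEN and iXEN in ESC medium and XEN and iXEN in XEN medium, and none lower. These are 27.1%, 56.3%, 77.1% and 62.5% of the list, where 11.4%, 20.8%, 23% and 17.7% of all genes were called higher. Of 61 further mitosis genes, 7, 37, 50 and 25 were called higher and none lower. The first of these, 11.5% of the list, is the same share as over all genes, and the others are 60.7%, 82% and 41%. For the first 2 comparisons, Dut, which clears dUTP from the nucleotide pool, rose from 15.9 to 34.1 CPM in MEF to 125 to 190 CPM in XEN in ESC medium (2.61, SE 0.36, adjusted p = 0.00738). Pold3, a subunit of polymerase delta, gave 1.52 (adjusted p = 0.0114) in XEN and 1.73 (adjusted p = 9.47e-05) in iXEN, and Pola2, the partner of Pola1, gave 1.55 (adjusted p = 0.000105) in iXEN. Pola2 ran from 21.6 to 25.7 CPM in MEF and from 48.6 to 99.2 CPM elsewhere, a separation that Pola1 did not have. The mitosis genes with the smallest p were Cdca3 (1.71, adjusted p = 0.0218) and Ube2c (1.89, adjusted p = 0.0219) in XEN, and Spc25 (1.46, adjusted p = 0.00053) and Cdca5 (1.72, adjusted p = 0.000609) in iXEN. Ube2c is the ubiquitin-conjugating enzyme of the anaphase ligase, Spc25 a kinetochore subunit and Cdca5 the cohesion factor sororin.

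Of 23 regulators of these genes, 3, 8, 10 and 4 were called higher and 0, 1, 1 and 1 lower. The shares called higher, 13%, 34.8%, 43.5% and 17.4%, are near the background for XEN in ESC medium and for iXEN in XEN medium. Mybl2, which encodes B-Myb, was at 11.3, 17.1 and 9.90 CPM in MEF and between 81.2 and 375 CPM in the other libraries, with XEN 7 the lowest in both media. Its log2 fold changes were 4.07 (SE 0.59, adjusted p = 0.0083), 4.56 (SE 0.29, adjusted p = 8.48e-06), 4.12 (SE 0.59, adjusted p = 0.00285) and 4.25 (SE 0.42, adjusted p = 0.00121), larger than those of any member. Mycn, a Myc family gene, was between 0.744 and 2.21 CPM in MEF and between 11.7 and 186 CPM elsewhere, and was called in each comparison (4.40, 4.38, 6.36 and 6.18). E2f4 was called in each as well (0.76, 0.96, 0.91 and 1.26). E2f2 was called only in iXEN in ESC medium (1.33). It was not called at 2.15 and 2.09 in XEN in ESC and XEN medium. Lin9, Lin52 and Lin54 of the MuvB complex were called higher in iXEN in ESC medium (1.09, 1.06 and 1.63). They were also called in XEN in XEN medium (1.51, 1.16 and 1.10) and in neither other comparison. Lin37 and Rbbp4 of that complex were called in none. Myc was called in none (−0.21, −0.74, −0.16 and 0.50). The gene called lower was Rbl2, which encodes a pocket protein typical of resting cells: it was at 28.5 to 32.7 CPM in MEF and 0.978 to 17.1 CPM elsewhere, with −1.46, −2.40 and −2.79 in the 3 comparisons that called it and −2.35 (adjusted p = 0.0827) in XEN in ESC medium. E2f1, Rb1 and Foxm1 were not called. E2f1 gave −0.02 (SE 0.21), −0.42 (SE 0.19), −0.47 (SE 0.17, adjusted p = 0.0578) and −0.01 (SE 0.40). Rb1 gave −0.30 (SE 0.43), −0.01 (SE 0.25), 0.26 (SE 0.33, adjusted p = 0.537) and 0.08 (SE 0.43), and Foxm1 gave 0.21 (SE 0.29), 0.60 (SE 0.22, adjusted p = 0.0551), 0.44 (SE 0.22) and 0.12 (SE 0.30). The levels of Mybl2 and Rbl2 thus separated MEF from every other library, while those of Foxm1 overlapped.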

How the data were processed

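RNA of 17 libraries was extracted with Trizol and made into libraries with a TruSeq mRNA kit, per the labels' protocols. The deposited values are raw counts of reads per gene; per the submitters' processing notes, the tools named are FastQC 0.11.3, Trimmomatic 0.32, TopHat2 2.0.12 and HTSeq 0.6.1 on build mm9. The sources used here give no annotation or strand setting, so antisense and overlapping genes cannot be told apart. Counter lines that name no gene held between 20.8% and 33.1% of each library and were left out. Of 24015 genes, 3443 had 0 counts in every library and 15267 passed the filter over all 17.

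CPM were computed from the deposited counts with TMM factors over all 17 libraries, between 0.863 and 1.14. Tests used edgeR 4.0.16 in R 4.3.3 with limma 3.58.1: TMM, filterByExpr with a minimum count of 10 and a total of 15, the two-sided quasi-likelihood test on only the groups compared, and Benjamini-Hochberg adjustment over all genes tested at 0.05. SE was taken as the size of the log2 fold change over the root of F, and intervals are 95%. Precision follows from depth: 3 counts are 0.0653 to 0.149 CPM, a limit that covers counting error only. The steps were tested on simulated data. Libraries of a group differed by a chi-square of at least 43.4 per degree of freedom, so none was a duplicate.

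Each member is given by its calls. Some are given by values in every library or by fold changes, most of these with an SE, an interval or an adjusted p. They are the 3 replication and 3 mitosis members with the smallest p in each comparison, and every called member where no more than 12 were called. Mcm2, Cdc6, Pcna, Mki67, Cdk1 and Ccnb1 are included, as are members called in the most or in none of the comparisons. The rule also covers the 2 genes with the smallest p of each further list in ESC medium, and E2f1, Rb1, Foxm1 and Mybl2. Mycn, Myc, E2f2, E2f4, Rbl2 and the MuvB genes fall wholly or partly outside this rule and were named after their values were seen. The members and lists were chosen with earlier results of these data known. Same-numbered XEN libraries deviated together across media (r = 0.24, 0.38 and 0.64 over 15267 genes), and since each is above 0.1 the numbers were taken to pair the XEN libraries, although XEN 2 in ESC medium correlated more with XEN 1 in XEN medium (r = 0.43); the blocked fit called no member in that comparison either. Alternatives were DESeq2 1.42.0, RLE size factors, no filter, a fit over all libraries, the replicate number as a block, and leaving out libraries. Promoter words were searched with Python 3.11.15, and figures drawn with matplotlib 3.10.9.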

Additional observations from a re-analysis of the deposited data

Results flagged for a closer look

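Of 94 values examined in groups of 4 libraries, all iXEN, 5 had 1 library far from the other 3 by Dixon's ratio of the gap to the range, and chance alone gives about 1 in 20. In ESC medium, Mcm2 was 327 CPM in iXEN 9 against 206 to 219 CPM in the other libraries. Ccnb1 was 267 CPM in iXEN 1 against 193 to 202 CPM, and Kif11 was 137 CPM in iXEN 1 against 89.4 to 93.1 CPM. In XEN medium, Pola1 was 62.8 CPM in iXEN 1 against 16.8 to 23.7 CPM, and Ccnb2 was 113 CPM in iXEN 6 against 55.7 to 61.1 CPM.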

How the results depend on the processing

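Under RLE size factors, no filter, DESeq2 and 1 fit over all 17 libraries, the number of members called stayed within 1.5 times its value in the 4 comparisons with MEF, and every member called in the main comparison had a positive fold change under each alternative. Taken alone, the mitosis calls went from 1 to 2, 3 and 4 for XEN in ESC medium under RLE size factors, DESeq2 and the fit over all 17 libraries, and from 8 to 5 for iXEN in ESC medium under the last. RLE size factors moved the median log2 fold change of all genes by at most 0.08 in size. For XEN against MEF in ESC medium, where 10 were called, leaving out 1 library gave 1 to 16 calls. For iXEN against MEF it gave 15 to 29 in ESC medium and 5 to 25 in XEN medium, and for XEN against MEF in XEN medium 24 to 36. For the medium in iXEN cells, where none was called, leaving out 1 library gave 0 to 2, DESeq2 gave 2 and the fit over all 17 libraries gave 1. With the replicate number as a block, 1 member was called for XEN in ESC medium and 0 for iXEN in XEN medium, with 25 for iXEN in ESC medium and 31 for XEN in XEN medium; MEF, XEN and iXEN share only a number, and the block leaves fewer libraries to measure the spread. Same-numbered iXEN libraries correlated across media by −0.036 to 0.19 and not each best with its own number. In the medium comparison of XEN cells, where the numbers were taken as pairs although the labels do not say so, the block changed no call. For iXEN in ESC medium the block gave Pcna and Mki67 a call and took that of Cdk1. The shares of all genes called in these alternative fits are not given here. The counts therefore cannot tell a change in the members from a change over all genes. In the remaining comparisons every alternative gave 0 members. Of 1351 alternative values of named members, 1268 kept their side of the threshold, 60 lost and 23 gained a call, and 0 of those called in either fit changed sign, while 32 called in neither did; the cause was not tested.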
